A study of Homo sapiens with 8 samples.

Results

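The keratin gene family was measured by RNA sequencing in SKBR-3 and BT474m1, 2 human breast cancer lines that carry an amplified HER2 gene. Its members were all genes whose symbol is KRT followed by a number, with a final letter A, B or C where there is one. The tables held 55 such genes among 20531. Of these, 24 had a value of at least 10 in some library of the 8 and are called the kept keratins, and the other 31 stayed below it. Each line was kept for 48 h in DMSO as the solvent control, in 300 nM lapatinib, which blocks the kinases EGFR and HER2, in 300 nM JQ1, which displaces the BET bromodomain proteins from acetylated histones, or in both drugs at these doses (the combination). SKBR-3 lacks the estrogen and progesterone receptors and BT474m1 expresses both, and each of the 8 groups was 1 library of poly(A) RNA from 1 established line. No difference could be set against a spread between cultures, so no p-value is given, and each 95% interval in parentheses covers counting error only. In RNA from a whole culture, fewer cells of a kind and less RNA per cell cannot be told apart. Values are normalised read counts, which the authors rescaled in each library to set its upper quartile near 1000.

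Keratins are the intermediate filament proteins of epithelial cells. A filament is built from pairs of 1 acidic type I chain and 1 basic or neutral type II chain, so that an epithelium expresses both types. In the breast the luminal cells that line the ducts carry the simple epithelial keratins KRT7 and KRT8 (type II) and KRT18 and KRT19 (type I). The basal or myoepithelial layer outside them carries KRT5 (type II) with KRT14, KRT15 and KRT17 (type I). Most breast cancers with amplified HER2 keep the luminal set. Other members belong to stratified and mucosal epithelia, to hair and to the sheath of the hair follicle.

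Both lines carried the luminal set and had little of the basal one. The 4 luminal keratins made up 85.1% to 97.5% of the summed keratin values in SKBR-3 and 97.8% to 98.4% in BT474m1, and the 4 basal keratins 0.0826% to 0.128% and 0.262% to 0.509%. KRT14 was the basal member that was not kept, with a highest value of 1.93. Of the other epithelial markers of the luminal list, EPCAM, MUC1, CLDN7 and ELF3 were at 58.5 or higher in the 8 libraries, and CDH1, which encodes E-cadherin, was at 15.1 or lower in SKBR-3 and at 19414 or higher in BT474m1. Of 8 basal or myoepithelial markers, 4 reached 10 in each line. Their summed value was 39.6 to 106 in SKBR-3 and 982 to 1199 in BT474m1, where CDH3, the gene of P-cadherin, held 930 to 1157 of it. Of the 6 fibroblast markers only COL1A1, a collagen chain, was kept, and LUM was at 0 in the 8 libraries. The list summed to 24.1 to 125 in SKBR-3 and to 341 to 1263 in BT474m1, where COL1A1 stood at 1253, 1211, 394 and 337 with DMSO, lapatinib, JQ1 and both drugs. The part of these markers in the keratin values was not tested. The 5 leukocyte markers summed to 2.06 to 17.2 in SKBR-3 and to 12.7 to 80.7 in BT474m1, where LYZ reached 80.7 with lapatinib.

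The depth ran from 21420113 to 34112376 reads on genes, and 1 read was worth 0.471 to 0.766 units. The 55 keratins together took 1.36% of the summed values in SKBR-3 with DMSO, 1.44% with lapatinib, 3.42% with JQ1 alone and 2.42% with the combination. In BT474m1 the shares were 0.559%, 0.466%, 0.768% and 0.647% in the same order. The JQ1 library was the highest in both lines and the lapatinib library the lowest in BT474m1 only. The share was higher in each SKBR-3 library than in each BT474m1 library.

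**Figure D1:**
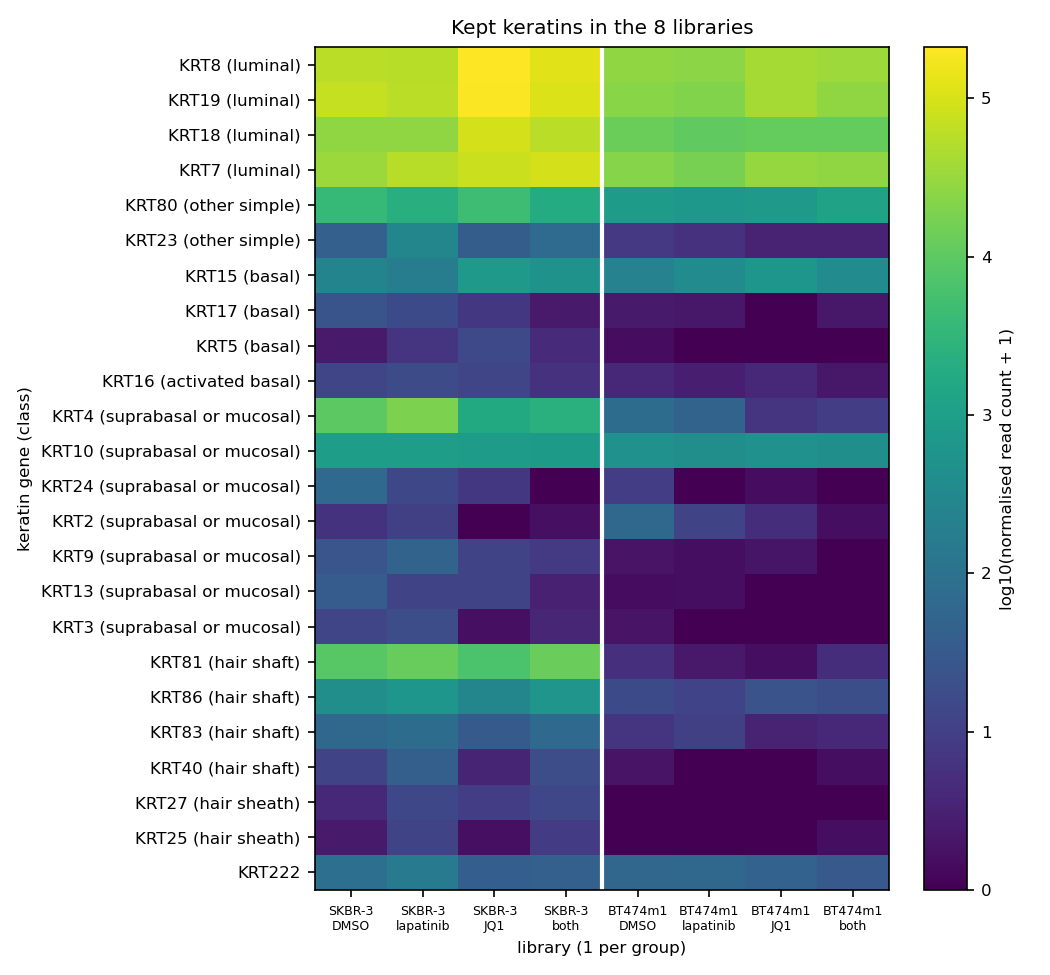
Level of the 24 kept keratins (rows, with their class) in the 8 libraries (columns), as log10 of the normalised read count plus 1. The 4 luminal keratins at the top are the brightest rows in both lines, and KRT4 and KRT81 are bright in SKBR-3 and dark in BT474m1.

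The luminal type II keratin KRT8 (Entrez 3856), the usual partner of KRT18, stood in SKBR-3 at 59145 with DMSO, 56640 with lapatinib, 211202 with JQ1 alone and 122390 with the combination. The BT474m1 values were 28237, 24517, 40391 and 35008 in the same order, which is kept throughout. In SKBR-3 the JQ1 library stood 3.57-fold above DMSO, a log2 fold change of 1.84 (1.83 to 1.85), and KRT8 ranked 4 among all genes there, against 9 with DMSO. With both drugs the change was 1.05 (1.04 to 1.06). In BT474m1 the change was 0.52 (0.50 to 0.53) with JQ1 and 0.31 (0.29 to 0.33) with both drugs, below the 2-fold limit used for a call. With lapatinib alone the change of KRT8 was -0.06 (-0.08 to -0.05) for SKBR-3 and -0.20 (-0.22 to -0.19) for BT474m1.

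KRT18 (Entrez 3875), the type I partner of KRT8 and its neighbour in the genome, stood in SKBR-3 at 27539 with DMSO, 27970 with lapatinib, 97486 with JQ1 alone and 58479 with the combination. BT474m1 had 13170, 10734, 11918 and 11398. The SKBR-3 change with JQ1 was 1.82 (1.81 to 1.84), close to that of KRT8, and with both drugs 1.09 (1.07 to 1.10). In BT474m1 KRT18 did not follow KRT8 upward, since its change was -0.14 (-0.17 to -0.12) with JQ1 and -0.21 (-0.23 to -0.18) with both drugs. The ratio of KRT18 to KRT8 stayed between 0.462 and 0.494 in the 4 SKBR-3 libraries. In BT474m1 it was 0.466 with DMSO, 0.438 with lapatinib, 0.295 with JQ1 alone and 0.326 with the combination, so that the 2 libraries with JQ1 were the lowest of the 8. The lapatinib change of KRT18 in SKBR-3, 0.02, turned to -0.03 when the libraries were scaled to equal totals.

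KRT19 (Entrez 3880), a type I keratin of simple epithelia that lacks most of the tail domain, stood in SKBR-3 at 70271 with DMSO, 59041 with lapatinib, 194265 with JQ1 alone and 110404 with the combination. In BT474m1 its values were 23748, 20941, 41090 and 27030. The change with JQ1 was 1.47 (1.46 to 1.48) in SKBR-3 and 0.79 (0.78 to 0.81) in BT474m1, the largest of the 4 luminal keratins in BT474m1. With both drugs it was 0.65 (0.64 to 0.66) and 0.19 (0.17 to 0.20). Lapatinib moved it by -0.25 and -0.18.

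KRT7 (Entrez 3855), the type II keratin of ducts and glands, had another order of the libraries. In SKBR-3 it stood at 34175 with DMSO, 57528 with lapatinib, 80546 with JQ1 alone and 95650 with the combination, so that it was highest with both drugs, whereas KRT8, KRT18 and KRT19 were highest with JQ1 alone. BT474m1 libraries held 22968, 16739, 30225 and 27402. The SKBR-3 changes were 0.75 (0.73 to 0.77) with lapatinib, 1.24 (1.22 to 1.25) with JQ1 and 1.48 (1.47 to 1.50) with both drugs. In BT474m1 they were -0.46 (-0.48 to -0.44), 0.40 (0.38 to 0.41) and 0.25 (0.24 to 0.27). Lapatinib therefore moved KRT7 in opposite directions in the lines, by less than 2-fold in each.

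**Figure D2:**
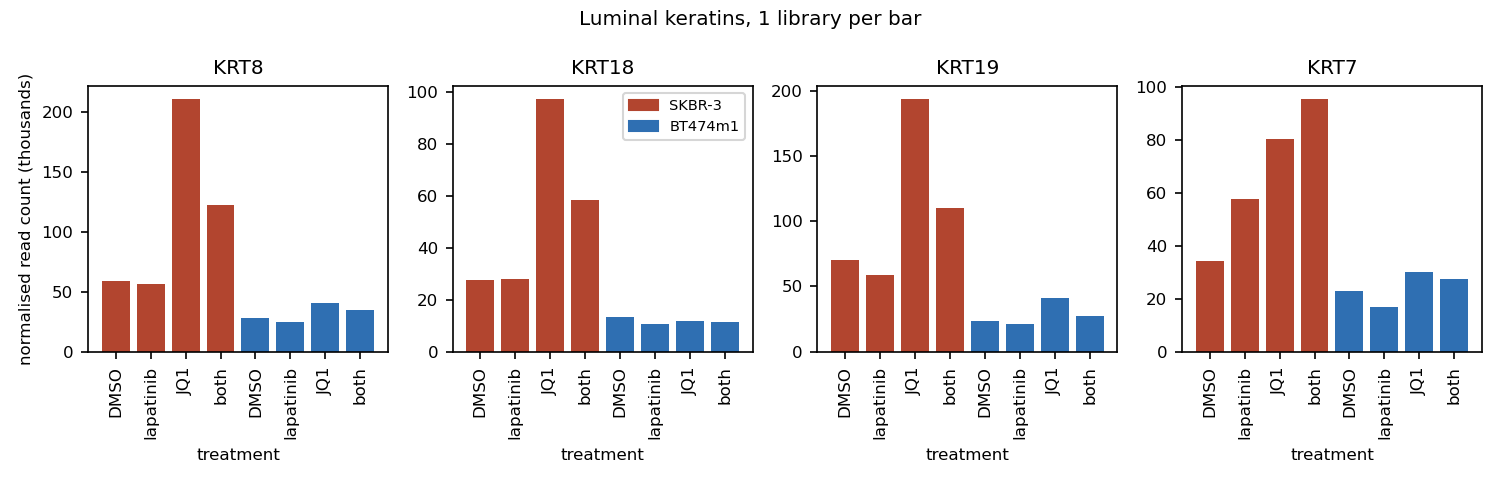
Normalised read counts (in units of 1000, each panel with its own axis from 0) of the 4 luminal keratins in SKBR-3 (red) and BT474m1 (blue), 1 library per bar. In SKBR-3, KRT8, KRT18 and KRT19 are highest with JQ1 and KRT7 with both drugs, at 95650.

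Reads of the luminal genes could be shared with other loci. GENCODE v44 lists 51 pseudogenes named after KRT8, 68 after KRT18 and 5 after KRT19, and how the counting treated them is not given in the sources used here. KRT8 and KRT18 lie on opposite strands and share 525 exonic bases in that annotation. The labels name both a kit that marks the strand and one that does not, and the use of strand in counting is not stated, so that reads from the shared bases cannot be told apart.

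In SKBR-3, 7 of the 24 kept keratins rose 2-fold or more with JQ1 (29.2%, against 3.75% of the 14429 genes kept), and 9 fell (37.5%, against 11.8%). The 7 were the 4 luminal members, KRT5, KRT15 and KRT27. The interval of KRT27, at 2.86 with DMSO and 8.38 with JQ1, included no change. Among the 12 keratins that reached 100 in any library, 5 were raised (41.7%, against 2.88% of the 11758 such genes). These were the 4 luminal members and KRT15, and 2 were lowered, KRT4 and KRT222 (16.7%, against 8.6%). In BT474m1, JQ1 raised 1 of the 24, KRT15 (4.17%, against 4.81%), and lowered 6 (25%, against 11.8%). The latter count rests on low values, since it was 4 where the interval had to exclude no change and 2 with a pseudocount of 10. Among the 12 it raised 1 (8.33%, against 3.51%) and lowered 3 (25%, against 8.9%), KRT4, KRT23 and KRT81, of which the latter pair were below 10 in each BT474m1 library. A member kept only through the one library in which it is high had to differ from the rest, so these counts describe the family and support nothing beyond it. The median log2 fold change with JQ1 of the 4 luminal keratins was 1.65 in SKBR-3 and 0.46 in BT474m1, beside -0.08 and -0.06 over all genes kept. The median of the 3 basal keratins kept was 1.54 in SKBR-3, the value of KRT15. In BT474m1 it was -0.56, the value of KRT5, which had 1 read with DMSO and 0 with JQ1, while KRT15 stood at 1.45 there.

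Both drugs together raised 6 of the 24 kept keratins in SKBR-3 (25%, against 10.8%) and lowered 9 (37.5%, against 20.8%). With equal totals 3 were raised, and with a pseudocount of 10 it was 3 raised and 5 lowered. Where the interval had to exclude no change, 7 were lowered. Among the 12, 4 were raised (33.3%, against 10.5%), which were KRT7, KRT8, KRT15 and KRT18, and 2 lowered (16.7%, against 18.5%). With equal totals KRT7 alone of these 4 stayed past 2-fold, at 1.40, with KRT8 at 0.96, KRT15 at 0.93 and KRT18 at 0.999 just short of it, and KRT80 came past it downward, at -1.01. Of the 2 lowered, KRT4 and KRT222, the latter stood at -1.03 and at -0.89 with median-of-ratios scaling. In BT474m1 both drugs raised 0 (against 14.2%) and lowered 4 (16.7%, against 15.3%), a share near that of all genes, and 2 with a pseudocount of 10. Among the 12, 0 were raised (against 10.4%) and 2 lowered (16.7%, against 13.4%). Against lapatinib alone, both drugs raised 3 in SKBR-3, KRT8, KRT15 and KRT18 (12.5%, against 3.22%). They lowered 11 there (45.8%, against 16.2%), or 7 with a pseudocount of 10. All 3 raised were among the 12 (25%, against 2.57%), where 3 were lowered (25%, against 12.8%). In BT474m1 both drugs raised 1 against lapatinib, KRT81 (4.17%, against 5.2%), whose interval included no change, and lowered 4 (16.7%, against 12.5%). Among the 12 the shares were 8.33% raised (against 3.69%) and 16.7% lowered (against 9.75%). The contrasts share libraries, since DMSO and lapatinib each enter more than 1 of them.

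Lapatinib alone left the luminal set within 2-fold in both lines. It raised 5 of the 24 kept keratins in SKBR-3 (20.8%, against 11.1%), namely KRT23 and 4 that stayed below 40 in each library of that line. This count was 2 with a pseudocount of 10 and 4 where the interval had to exclude no change. Lapatinib lowered 2 there, KRT13 and KRT24 (8.33%, against 9.44%). Among the 12, 1 was raised (8.33%, against 9.66%) and 0 were lowered (against 8.43%). In BT474m1 it raised 0 (against 14.0%) and lowered 3, KRT2, KRT24 and KRT81 (12.5%, against 8.06%), and 1 with a pseudocount of 10. Among the 12, 0 were raised (against 9.72%) and 1 lowered, KRT81 (8.33%, against 7.05%), at 4.55 with DMSO and an interval that included no change. The median change of the luminal keratins was -0.02 in SKBR-3 and -0.25 in BT474m1, beside 0.05 and 0.07 over all genes kept.

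**Figure D3:**
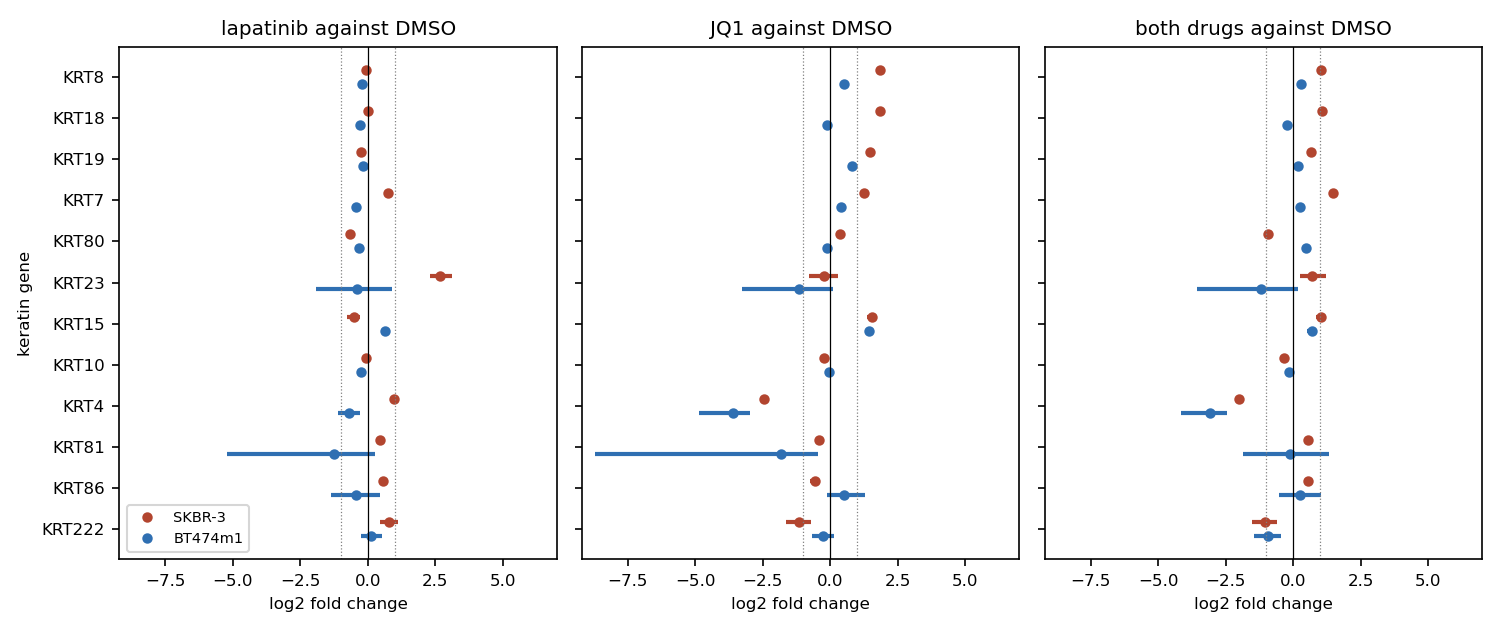
Log2 fold change against DMSO of the 12 keratins that reached 100 in any library, in SKBR-3 (red) and BT474m1 (blue), for lapatinib, JQ1 and both drugs. Points are log2 fold changes of the value plus 1, bars are 95% counting intervals (hidden by the point where narrow) and dotted lines mark 2-fold. With JQ1 the 4 luminal keratins and KRT15 lie right of the 2-fold line in SKBR-3, KRT15 also does in BT474m1, and KRT4 lies left of it in both lines.

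KRT15 (Entrez 3866), a type I keratin of basal cells that lies beside KRT19 in the genome, was the basal member with the highest value in each of the 8 libraries. It stood in SKBR-3 at 251 with DMSO, 175 with lapatinib, 732 with JQ1 alone and 511 with the combination, and in BT474m1 at 234, 369, 639 and 377. It was highest with JQ1 in both lines, at a log2 fold change of 1.54 (1.37 to 1.72) and 1.45 (1.30 to 1.60), and was the one keratin that JQ1 raised at least 2-fold in both. With both drugs it stood 1.02 (0.84 to 1.21) and 0.69 (0.52 to 0.86) above DMSO. With lapatinib it stood at -0.51 (-0.77 to -0.27) in SKBR-3 and, in BT474m1, at 0.65 (0.48 to 0.83). KRT15 and KRT19 rose together with JQ1 in SKBR-3. In BT474m1 KRT19 stayed below 2-fold.

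The other basal members were low, at 23.6 or less in SKBR-3 and near the limit of detection in BT474m1. KRT17 (Entrez 3872), a type I keratin of basal and injured epithelium, stood in SKBR-3 at 23.6 with DMSO, 14.5 with lapatinib, 6.44 with JQ1 alone and 1.38 with the combination. In BT474m1 it was at 1.41, 1.205, 0 and 1.17. KRT5 (Entrez 3852), the type II partner of KRT14, stood in SKBR-3 at 1.43, 5.36, 14.1 and 3.44, and in BT474m1 at 0.472 with DMSO and at 0 in the other 3 libraries. KRT16, which keratinocytes switch on in wounds, stood between 4.82 and 15.3 in SKBR-3 and between 1.17 and 2.90 in BT474m1, and its relatives KRT6A, KRT6B and KRT6C stayed at 1.43 or lower. Floors of 3 reads correspond to 1.41 to 2.30 units, and the BT474m1 values of KRT5 and KRT17 were 3 reads or fewer in each library. Within the basal list KRT15 and KRT5 rose with JQ1 in SKBR-3, KRT5 at 2.63 (1.28 to 6.44) from 2 reads with DMSO. KRT17 fell there, at -1.73 (-3.06 to -0.82).

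KRT4 (Entrez 3851), a type II keratin of the layers above the base in mucosal epithelium, was the third most abundant type II member per coding length in SKBR-3 with DMSO. It stood there at 9591 with DMSO, 18550 with lapatinib, 1735 with JQ1 alone and 2395 with the combination. The values in BT474m1 were 76.9, 47.6, 5.31 and 8.16. The JQ1 libraries were the lowest in both lines, at -2.47 (-2.53 to -2.41) in SKBR-3 and -3.62 (-4.88 to -2.98) in BT474m1, and both drugs left it at -2.00 (-2.06 to -1.95) and -3.09 (-4.14 to -2.45). The BT474m1 values, which rest on 5.31 and 8.16 units, were -2.50 and -2.26 with a pseudocount of 10. With lapatinib it stood at 0.95 (0.92 to 0.98) in SKBR-3 and, in BT474m1, at -0.68 (-1.10 to -0.30). Adding JQ1 to lapatinib lowered it 7.74-fold in SKBR-3. With JQ1 the changes of KRT4 and of the luminal type II keratins KRT7 and KRT8 had opposite signs in both lines.

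The promoter of KRT4 is shown because this member moved furthest down with JQ1 in SKBR-3 among the 12 keratins that reached 100. The sequence is from RefSeq, GRCh38.p14, chr12:52814067-52814366, minus strand, from 250 bases before the start of the gene to 50 after it. It locates the gene and not the reads, since the build behind the values is uncertain. Capitals mark the one match to the motifs searched.

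KRT4 promoter: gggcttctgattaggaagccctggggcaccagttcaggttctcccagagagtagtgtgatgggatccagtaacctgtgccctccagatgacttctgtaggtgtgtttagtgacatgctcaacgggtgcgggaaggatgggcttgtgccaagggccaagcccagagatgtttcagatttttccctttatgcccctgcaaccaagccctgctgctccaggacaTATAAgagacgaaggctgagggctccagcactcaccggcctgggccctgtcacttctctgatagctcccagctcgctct

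The match is TATAA, the core of a TATA box, which begins 29 bases before the start. Of the 35116 promoters of this length in the table, 20.4% held TATAA on either strand, and so did 9 of the 11 kept keratins that have a promoter there. These were KRT2, KRT3, KRT4, KRT9, KRT10, KRT24, KRT25, KRT27 and KRT40, none of them luminal. KRT7, KRT15, KRT18, KRT19, KRT23, KRT80, KRT81 and KRT86 had no promoter there, so the 11 do not stand for the kept keratins. The KRT4 window held no match on either strand to GTAAACA or GTCAACA, which forkhead factors bind, or to TGANTCA, which AP-1 binds. It also held none to GGGCGG, the GC box, to CACGTG, a form of the E-box, or to the consensus NF-kappaB site. These 6 motifs were found in 3.42%, 2.32%, 7.71%, 45.0%, 7.26% and 0.191% of all promoters. As the window held 1 match in all, no motifs overlapped in it, and a match is a description of the letters only.

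KRT81 (Entrez 3887), a type II keratin of the hair cortex, was abundant in one line and nearly absent in the other. In SKBR-3 it stood at 8792 with DMSO, 11945 with lapatinib, 6485 with JQ1 alone and 12926 with the combination, and in BT474m1 at 4.55, 1.33, 0.546 and 4.08. With DMSO the ratio of the plain values was 1932. On the scale of log2(value + 1), which lessens it, BT474m1 stood at -10.63 (-11.93 to -9.99) against SKBR-3. In SKBR-3 its changes were below 2-fold, at 0.44 (0.41 to 0.48) with lapatinib, -0.44 (-0.48 to -0.40) with JQ1 and 0.56 (0.52 to 0.59) with both drugs. The last was higher than with either drug alone. In SKBR-3, KRT81 was lowest with JQ1, the library in which KRT8, KRT18 and KRT19 were highest.

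KRT86 (Entrez 3892) and KRT83 (Entrez 3889) are hair keratins with sequences very close to that of KRT81. KRT86 stood in SKBR-3 at 419.9, 627, 283 and 611 in the order DMSO, lapatinib, JQ1 and both drugs, and KRT83 at 59.2, 76.7, 31.2 and 65.7. In BT474m1 KRT86 stood at 14.7, 10.8, 21.5 and 17.6 and KRT83 between 2.42 and 9.04. In the 4 SKBR-3 libraries KRT86 was between 4.36% and 5.25% of KRT81, and KRT83 between 0.481% and 0.673%, while KRT81 itself ranged from 6485 to 12926. The coding sequences of KRT81 and KRT86 were identical at 90.1% of aligned positions, and those of KRT81 and KRT83 at 89.3%. Of the stretches of 50 bases in the KRT86 transcript, 34.5% also occurred in another keratin transcript, of those of KRT81 42.1%, and of those of KRT83 9.97%. The KRT81 gene also overlaps that of KRT86 on the opposite strand, with 0 exonic bases shared. That of KRT7 overlaps KRT86 on the same strand, also with 0 exonic bases shared. How the counting split such reads is not given, and the values of KRT81, KRT83 and KRT86 are uncertain to that extent. A stretch of 60 coding bases is printed below. It was the first without gaps to differ at 3 to 8 positions among the 3 genes, with at least 2 differences of KRT83 and of KRT86 from KRT81. As it was picked by these limits, it does not measure how close the genes are. It is read from the GENCODE v44 transcripts, with capitals at the 4 positions at which they differ.
KRT81 coding bases 684 to 743: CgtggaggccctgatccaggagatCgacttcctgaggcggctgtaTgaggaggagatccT
KRT83 coding bases 699 to 758: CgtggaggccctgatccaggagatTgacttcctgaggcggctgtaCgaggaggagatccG
KRT86 coding bases 684 to 743: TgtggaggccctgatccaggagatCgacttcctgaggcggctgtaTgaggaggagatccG

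KRT86 differs from KRT81 at 2 of these 60 bases and KRT83 at 3. No stretch of 50 bases of KRT10, KRT18, KRT19 or KRT4 occurred in another keratin transcript, and for KRT7, KRT8, KRT15 and KRT80 the share was 1.02% or less.

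KRT80 (Entrez 144501), a type II keratin found in many epithelia, stood in SKBR-3 at 3641 with DMSO, 2309 with lapatinib, 4600 with JQ1 alone and 1919 with the combination. In BT474m1 it stood at 851, 679.5, 776 and 1180, so that both drugs were the lowest library in SKBR-3 and the highest in BT474m1. The changes with both drugs were -0.92 (-0.99 to -0.86) and 0.47 (0.38 to 0.56). KRT23 (Entrez 25984), a type I keratin of simple epithelium, stood in SKBR-3 at 42.9, 277, 36.1 and 70.9 and in BT474m1 at 6.60, 4.82, 2.42 and 2.33. Its rise with lapatinib in SKBR-3, 2.66 (2.29 to 3.11), was the highest of the 24 in that contrast on the scale of value + 1, whereas by plain values KRT25 had the higher ratio (8.02 against 6.45), from 1.43 to 11.5. Adding JQ1 to lapatinib lowered it, at -1.95 (-2.30 to -1.65).

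KRT10 (Entrez 3858), a type I keratin of the upper layers of the epidermis, stood at 984, 947, 829 and 785 in SKBR-3 and at 497, 419.9, 484 and 454 in BT474m1. Its changes against DMSO lay between -0.33 and -0.04, of which the last, with JQ1 in BT474m1, changed sign with median-of-ratios scaling. KRT222 (Entrez 125113), which is keratin-like but shorter than the others, stood in SKBR-3 at 88.0, 152, 38.7 and 42.6 and in BT474m1 at 57.0, 62.7, 47.3 and 29.7. Lapatinib was the highest library for it in both lines, by less than 2-fold against DMSO.

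**Figure D4:**
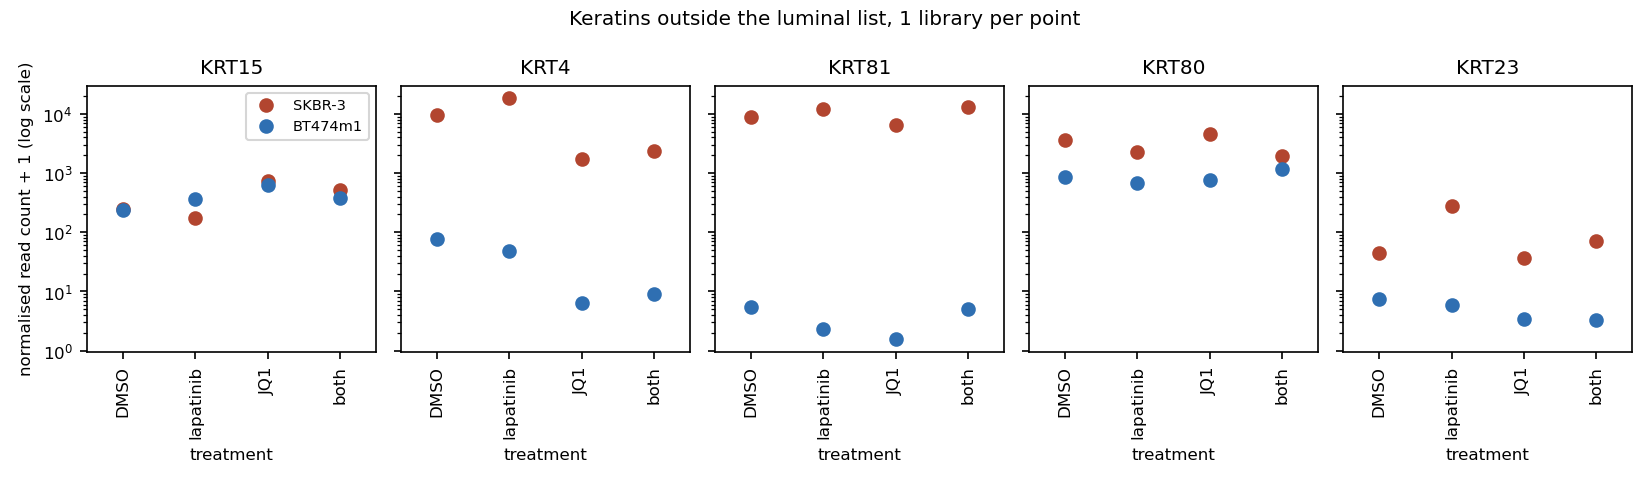
Normalised read count plus 1 (log scale) of KRT15, KRT4, KRT81, KRT80 and KRT23 in SKBR-3 (red) and BT474m1 (blue), 1 library per point. KRT15 is highest with JQ1 in both lines, KRT4 is lowest with JQ1 in both, and KRT81 lies at 6485 or higher in SKBR-3 and at 4.55 or lower in BT474m1.

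The remaining kept keratins stayed below 100 in each library. KRT2, a keratin of the upper epidermis, was with DMSO the one member raised 2-fold or more in BT474m1 over SKBR-3, at 58.5 against 5.01. The BT474m1 values were 11.4 with lapatinib, 3.86 with JQ1 and 0.583 (1 read) with the combination. KRT24 stood in SKBR-3 at 63.7, 13.0, 6.44 and 0, which puts the combination at least 30.9-fold lower than DMSO, computed against the floor of 3 reads in that library. KRT13, the type I partner of KRT4 in mucosa, stood in SKBR-3 at 33.6, 11.5, 11.6 and 2.06, so that its lapatinib value was below DMSO and that of KRT4 above. KRT9, of palm and sole skin, stood at 24.3, 49.0, 11.6 and 6.88. KRT3, KRT25, KRT27 and KRT40 reached at most 16.8, 11.5, 13.0 and 39.8, each in SKBR-3 with lapatinib. Just outside the threshold, KRT78 reached 7.87, KRT28 6.89 and KRT20 5.36, and just inside it KRT25 reached 11.5. Of the 31 keratins below the threshold, 11 were at 0 in the 8 libraries.

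The lines were compared without drug. BT474m1 with DMSO was at least 2-fold below SKBR-3 for 18 of the 24 kept keratins (75%, against 15.6% of all genes kept) and 2-fold or more above it for 1 (4.17%, against 26.8%). Among the 12 the counts were 8 (66.7%, against 13.8%) and 0 (against 23.5%). The median difference was -1.07 for the 4 luminal keratins, beside 0.21 over all genes kept. KRT8 stood at -1.07 (-1.08 to -1.05), KRT18 at -1.06 (-1.09 to -1.04), KRT19 at -1.57 (-1.58 to -1.55) and KRT7 at -0.57 (-0.59 to -0.56). KRT15 was the abundant member closest between the lines, at -0.10 (-0.30 to 0.10). Whether that interval held no change depended on the scaling, as with median-of-ratios scaling KRT15 stood at -0.25 (-0.46 to -0.05). KRT4 stood at -6.95 (-7.20 to -6.74). Over the 4 treatments, each SKBR-3 library was above each BT474m1 library for 18 of the 24 (75%, against 16.0% of all genes kept), the 4 luminal keratins among them, and the reverse held for 0 (against 29.0%). The filter bears on these counts, since 13 of the 24 reached 10 in SKBR-3 only and 1, KRT2, in BT474m1 only, and the highest value of such a member was in that line by the rule itself. Of the 10 that reached 10 in both lines, 6 were at least 2-fold lower in BT474m1 with DMSO (against 13.9% of the 12191 such genes) and 0 higher (against 20.8%), and for 8 each SKBR-3 library was above each BT474m1 library, as for 15.7% of those genes.

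Levels of different keratins were compared per kilobase of coding sequence. For KRT80, whose transcript is much longer than its coding part (3873 against 1359 bases), this overstates the level. KRT8 was the highest type II keratin in 7 libraries. In SKBR-3 with lapatinib KRT7 was highest, at 40800 per kilobase against 39009 for KRT8. KRT19 was the highest type I keratin in the 8 libraries, with 64.9% to 77.4% of the type I sum, and KRT18 was second with 20.9% to 33.5%. The ratio of summed type II to summed type I levels was 0.991 in SKBR-3 with DMSO, 1.42 with lapatinib, 0.889 with JQ1 alone and 1.19 with the combination. In BT474m1 it was 1.1995, 1.118, 1.13 and 1.40. Per coding length the sums were within 1.5-fold of each other in each library, which did not hold in each library without division by length (up to 1.67) or without KRT8 and KRT19 (up to 2.77). The sum itself moved in SKBR-3 from 79916 to 211571 per kilobase for type II with JQ1 and from 80605 to 237954 for type I.

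**Figure D5:**
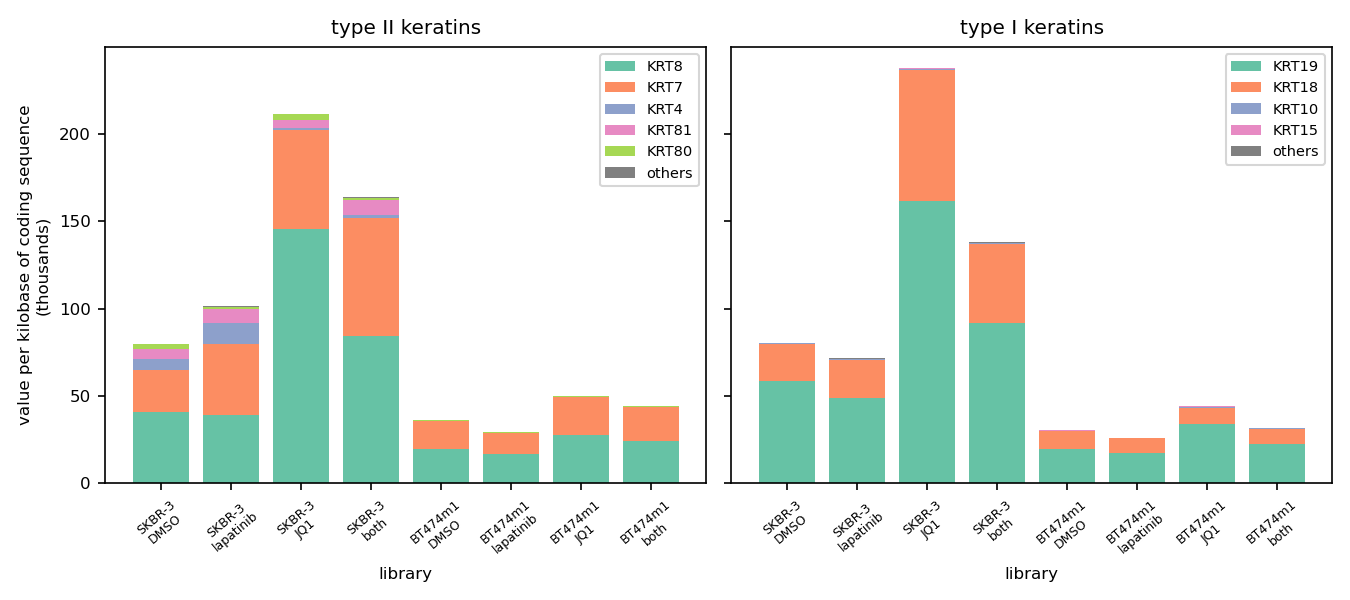
Summed level per kilobase of coding sequence (in units of 1000) of the type II keratins (left) and type I keratins (right) in each library, divided by gene. KRT8 and KRT7 make up most of the type II bar and KRT19 and KRT18 nearly all of the type I bar, and both bars are tallest in SKBR-3 with JQ1, at 211571 and 237954.

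Of 22 listed genes whose products anchor or organise keratin filaments, 18 were kept. In SKBR-3 lapatinib raised 2 of them, DSC1 and DST (11.1%, against 11.1% of all genes kept), and lowered 1, PKP1 (5.56%, against 9.44%). JQ1 raised 2 there, PLEC and EPPK1 (11.1%, against 3.75%), and lowered 2, PKP1 and TRIM29 (11.1%, against 11.8%). In BT474m1 lapatinib raised 1, DSG2 (5.56%, against 14.0%), and lowered 2, PKP1 and DSC1 (11.1%, against 8.06%), and JQ1 raised 1, EPPK1 (5.56%, against 4.81%), and lowered 0 (against 11.8%). DSC1 was low in both lines, at 4.29 with DMSO and 18.5 with lapatinib in SKBR-3. In BT474m1 it stood at 3.30 and 0.602, with an interval (-7.95 to 0.51) that included no change. EPPK1 (epiplakin), a linker of the plakin family that binds keratin, stood in SKBR-3 at 2632 with DMSO, 1483 with lapatinib, 7315 with JQ1 alone and 4398 with the combination. BT474m1 had 831, 944, 2453 and 1422. EPPK1 was highest with JQ1 in both lines, at 1.47 and 1.56, and KRT8, KRT15 and KRT19 were also highest with JQ1 in both. PKP1 (plakophilin 1), a desmosomal protein of stratified epithelium, stood in SKBR-3 at 754, 335, 152 and 58.5 and in BT474m1 at 114, 42.2, 81.2 and 25.7. The plakin linkers DST and PPL and the desmosomal cadherin DSC2 stood 1.06, 0.86 and 0.84 above DMSO with lapatinib in SKBR-3, and DSG2 stood at -0.10. In BT474m1 DSG2 stood at 1.04, and DST, PPL and DSC2 at 0.34, -0.04 and -0.18.

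Other intermediate filament genes were measured alongside. Of 16 listed, 8 were kept. Lapatinib lowered 3 of them in each line, the nuclear lamins LMNB1 and LMNB2 and NES (nestin), which is 37.5% against 9.44% of all genes in SKBR-3 and 8.06% in BT474m1. LMNB1 stood at -3.05 in SKBR-3 and -3.15 in BT474m1. Lapatinib raised 1 in SKBR-3, the lens filament gene BFSP1 at 1.56 (12.5%, against 11.1%), and 2 in BT474m1, VIM at 1.68 and SYNC at 1.92 (25%, against 14.0%). JQ1 lowered 2 in SKBR-3, SYNC and BFSP1 (25%, against 11.8%), and 4 in BT474m1, NES, SYNC, LMNB1 and LMNB2 (50%, against 11.8%), and raised 0 in either line (against 3.75% and 4.81% of all genes). VIM (vimentin), the filament of mesenchymal cells, was at 2.06 or lower in SKBR-3 and stood in BT474m1 at 204 with DMSO, 657 with lapatinib, 257 with JQ1 alone and 563 with the combination. Of 17 squamous differentiation genes 9 were kept. In SKBR-3 JQ1 raised 5 of the 9 (55.6%, against 3.75%) and lowered 2 (22.2%, against 11.8%), and in BT474m1 it raised 1 (11.1%, against 4.81%) and lowered 5 (55.6%, against 11.8%). Lapatinib raised 2 in SKBR-3 (22.2%, against 11.1%) and lowered 5 (55.6%, against 9.44%), and in BT474m1 it raised 1 (11.1%, against 14.0%) and lowered 4 (44.4%, against 8.06%). The 2 raised in SKBR-3 were low. TGM3 went from 0 to 2.30, with an interval that included no change, and CSTA from 4.29 to 16.1. IVL (involucrin), a precursor of the cornified envelope, stood in SKBR-3 at 395, 191, 1497 and 372, and was at 1.89 or lower in BT474m1. There it was 1 of the 4 lowered by lapatinib, from 1.89 to 0, with an interval that included no change. The calprotectin genes S100A8 and S100A9 stood at 1.98 and 1.06 with JQ1 in SKBR-3, at -1.54 and -1.67 with lapatinib and at -1.81 and -2.16 with both drugs. In BT474m1, where neither exceeded 21.2, they stood at -2.05 and -1.83 with JQ1, at -1.54 and -2.37 with lapatinib and at -3.36 and -3.72 with both drugs. SFN (stratifin) stood at -1.72 with JQ1 in SKBR-3 and at -1.15 in BT474m1. It was lower with lapatinib, at -2.53 and -1.90, and lowest with both drugs, at -5.83 and -3.40.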

How the data were processed

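Poly(A) RNA was sequenced in 8 libraries, 1 per group, and groups were taken from the labels, whose treatment time was followed (the study's methods give a shorter one for cell lines in general). The deposited tables give 1 signal for each gene, namely an RSEM estimate of its reads that the authors rescaled to place the upper quartile near 1000. The submitters' processing notes name hg19, and the study's methods text names hg38, STAR and Salmon, so that the build is uncertain and no coordinates are given for the reads. The members and lists were chosen with earlier results of these data known.

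The worth of 1 read (0.471 to 0.766 units) was found from the spacing of the low values of a library, and 83.8% to 85.2% of values above 0 were whole to within 0.02 reads. Depth was 21420113 to 34112376 reads on genes. Genes at 10 or more in any library were kept. Log2 fold changes are of value + 1 and were called at 2-fold. With 1 library per group no test was run. Each 95% interval is the exact Clopper-Pearson interval on recovered reads, without the pseudocount. Intervals, and floors of 3 reads, cover counting error only, since reads lacked molecular identifiers and may be copies of 1 molecule. Keratins in the luminal or basal list, or at 100 or more in any library, were given with values in each library, and other kept members by range or by their values. From each list of other genes up to 6 members with the largest change with lapatinib, among those at 100 or more, were eligible to be named. DSC1, TRIM29, PLEC, TGM3 and CSTA were named after their values were seen. Coding lengths come from GENCODE v44. The scripts used scipy 1.17.1, pandas 2.3.3, numpy 2.4.6, matplotlib 3.10.9 and Python 3.11.15, and the method was tested on simulated data. The alternatives were another pseudocount, scaling, filter and length rule, and calls only where the interval excluded no change.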

Additional observations from a re-analysis of the deposited data

Results flagged for a closer look

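Several keratins moved in opposite directions in the lines, with both counting intervals excluding no change in the authors' scaling. With 1 library per group the difference between the lines was not tested. With lapatinib against DMSO, KRT15 stood at -0.51 in SKBR-3 and 0.65 in BT474m1, KRT4 at 0.95 and -0.68, KRT7 at 0.75 and -0.46, and KRT18 at 0.02 and -0.30 (on the log2 scale, SKBR-3 first, as below). The SKBR-3 value of KRT18 turned to -0.03 with equal totals, and its interval held no change with median-of-ratios scaling (-0.02 to 0.03). With JQ1 against DMSO, KRT18 stood at 1.82 and -0.14 and KRT80 at 0.34 and -0.13. With median-of-ratios scaling the BT474m1 value of KRT80 was -0.09 (-0.19 to 0.0041), which does not exclude no change. With both drugs against DMSO, KRT18 stood at 1.09 and -0.21 and KRT80 at -0.92 and 0.47. With both drugs against lapatinib, KRT80 stood at -0.27 and 0.80.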

How the results depend on the processing

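The labels give no replicate numbers by which libraries could be paired, and a fit over both lines with the line and the drugs as terms was not run. Median-of-ratios scaling moved the median log2 change of all genes by 0.11 at most upward and by -0.15 downward, equal totals by up to -0.14 (SKBR-3 with JQ1), and neither turned the direction of a named keratin changed at least 2-fold. Below 2-fold, 5 changes turned sign, that of KRT18 among them. By more than the half-width of the counting interval, median-of-ratios scaling moved 48 of 126 log2 fold changes of named keratins, and equal totals moved 34. KRT8 with JQ1 in SKBR-3, at 1.84 in the authors' scaling, became 1.92 and 1.69, both outside its counting interval. A pseudocount of 10 moved the count of keratins raised by lapatinib in SKBR-3 from 5 to 2, raised and lowered by both drugs there from 6 and 9 to 3 and 5, and lowered by both drugs against lapatinib from 11 to 7. In BT474m1 it moved the lowered counts from 3 to 1 with lapatinib, 6 to 2 with JQ1, 4 to 2 with both drugs and 4 to 2 for both against lapatinib, where the raised count went from 1 to 0. With equal totals, both drugs raised 3 in SKBR-3. Where the interval had to exclude no change, both drugs against lapatinib raised 0 in BT474m1. With no filter, lapatinib lowered 4 in SKBR-3 and raised 4 in BT474m1, both drugs raised 1 in BT474m1, and both against lapatinib raised 2 and lowered 9 there. With a filter at 100, lapatinib raised 1 and lowered 0 in SKBR-3, JQ1 lowered 2, both drugs lowered 2, and both against lapatinib lowered 3. In BT474m1 it gave 1 lowered with lapatinib, 3 with JQ1, 2 with both and 2 for both against lapatinib. Between the lines it gave 0 raised and 8 lowered. These filters act by construction through the low members. The ratio of type II to type I sums, not divided by length, was 1.17, 1.67, 1.04 and 1.39 in SKBR-3 and 1.39, 1.29, 1.32 and 1.62 in BT474m1 (DMSO, lapatinib, JQ1, both). Per coding length but without KRT8 and KRT19, the ratio was 1.77, 2.77, 0.865 and 1.73, and 1.60, 1.41, 2.21 and 2.17. Differences of low members are limited by depth, and single hair keratins by shared sequence.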
